A study of Mus musculus with 4 samples.

Results

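A list of 45 genes of the non-collagen extracellular matrix (ECM) and of its assembly was examined in primary mouse macrophages of both G3bp1 genotypes. By the study's text, these macrophages were derived from bone marrow. The genes were chosen by symbol from the 34745 genes of the count table: 6 small leucine-rich proteoglycans, 2 large proteoglycans, 10 elastic fibre and microfibril genes, 5 laminin chains, 2 nidogens, 5 crosslinking enzymes, 4 genes of collagen folding and processing, 7 adhesive and matricellular glycoproteins, and 4 inhibitors and regulators. Total RNA was sequenced in 4 libraries, WT 1 and WT 2, and KO 1 and KO 2. The design text names the controls G3bp1 f/f, mice whose G3bp1 gene is flanked by loxP sites, and the KO mice G3bp1mac-/-, which by the study's methods carry the floxed gene together with a Cre recombinase driven by Lyz2. Lyz2-Cre is active in the myeloid lineage, that is monocytes, macrophages and granulocytes. G3BP1 is an RNA-binding protein on which stress granules are built. All cells were cultured in DMEM with 10% fetal bovine serum, with no further treatment given in the labels. The sources used here do not give the age or sex of the mice for these libraries, nor whether the libraries of a genotype came from separate animals, so the p-values measure only the spread between these samples.

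The ECM outside the collagens is built from a few families of secreted proteins. Small leucine-rich proteoglycans bind collagen fibrils and control their spacing. Fibrillin microfibrils and fibulins form the scaffold on which elastin is deposited, laminins and nidogens form the network of basement membranes, and lysyl oxidases and lysyl hydroxylases provide the crosslinks of collagen and elastin. Fibroblasts and other stromal cells make most of these proteins, whereas macrophages are known mainly for fibronectin, thrombospondin-1, versican and osteopontin.

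The library totals were 17004167 and 16926884 counts in WT against 16724241 and 19747909 counts in KO, and 12418 genes had enough counts to be tested. A count of 0 allowed up to 0.152 to 0.188 CPM (counts per library total after TMM scaling), counting error only. The macrophage genes Cd68 and Lyz2 had a mean FPKM (fragments scaled by gene length and library total, a level comparable between genes) of 1497 and 15140. G3bp1 itself had 1691 and 2875 counts in WT against 1307 and 2296 counts in KO, so that KO over WT on the log2 scale was -0.61 (SE 0.40) and ranged from -1.03 to -0.19 when single libraries were left out. It was lower in KO within both library numbers (-0.57 and -0.63), while the genotypes overlapped over all 4 libraries. With a term for the library number its edgeR adjusted p was 0.0853, and 0.0343 with a length correction beside it, both at less than a 2-fold difference. Counts of the whole gene do not resolve the loss of exons, and all the directions given here rest on the labels.

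The matrix genes were a small part of the RNA in every library and a larger one in the libraries labelled KO. Together the 45 genes had 5469 and 8038 counts in WT 1 and WT 2, and 18351 and 19108 in KO 1 and KO 2. This was 0.0322% and 0.0475% of the WT libraries against 0.110% and 0.0968% of the KO libraries. On the CPM scale the sum was 2.32 times as high in KO, and 2.28 times without the 4 genes with most counts, Fn1, Fstl1, Dcn and Sparc. These 4 genes held between 61.5% and 64.2% of the matrix counts of each library. In bulk RNA, more cells of a type that makes these transcripts and more transcript per cell cannot be told apart.

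KO 1 and KO 2 were both above WT 1 and WT 2 in 34 of the 45 genes and below them in 0, while 11 overlapped or had no counts. Of the 37 tested members alone, 30 had both KO libraries above and 0 had both below. Among all 12418 tested genes, 20.0% had both KO libraries above and 16.9% had both below. In 9 of the 37 tested members (Lum, Fmod, Fbln1, Fbln5, Lamb2, Loxl1, Adamts2, Postn and Mgp), both KO libraries but not both WT libraries reached the filter on low counts. They would not have passed on the WT libraries alone, which is called passing only through KO. Tnc passed with a mix of libraries of both genotypes. The count was therefore repeated by other filters. Of the 27 members that passed the low-count filter in both genotypes, 22 had both KO libraries above. With a filter on the mean over all libraries, at least 1 CPM, it was 27 of 33 members against 19.2% of 11548 genes.

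The median log2 fold change of KO over WT was 1.71 over the 37 tested members (interquartile range 0.74 to 2.09) and 0.041 over all tested genes. Over the 27 members that passed the filter in both genotypes the median was 1.58, with 19 above 1. Over the 37 it was above 0 in 35 members (54.6% of all genes) and above 1 in 26 (5.36% of all genes). Of the 37, however, 0 passed edgeR's quasi-likelihood test at an adjusted p under 0.05 with a fold over 2, as did 0% of all genes. The smallest adjusted p among them was 0.216. An unadjusted p under 0.05 was reached by 26 members with higher and 0 with lower values in KO, against 4.64% and 1.99% of all genes. Of the 27 members that passed the filter in both genotypes, 20 reached it, all higher in KO.

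**Figure D1:**
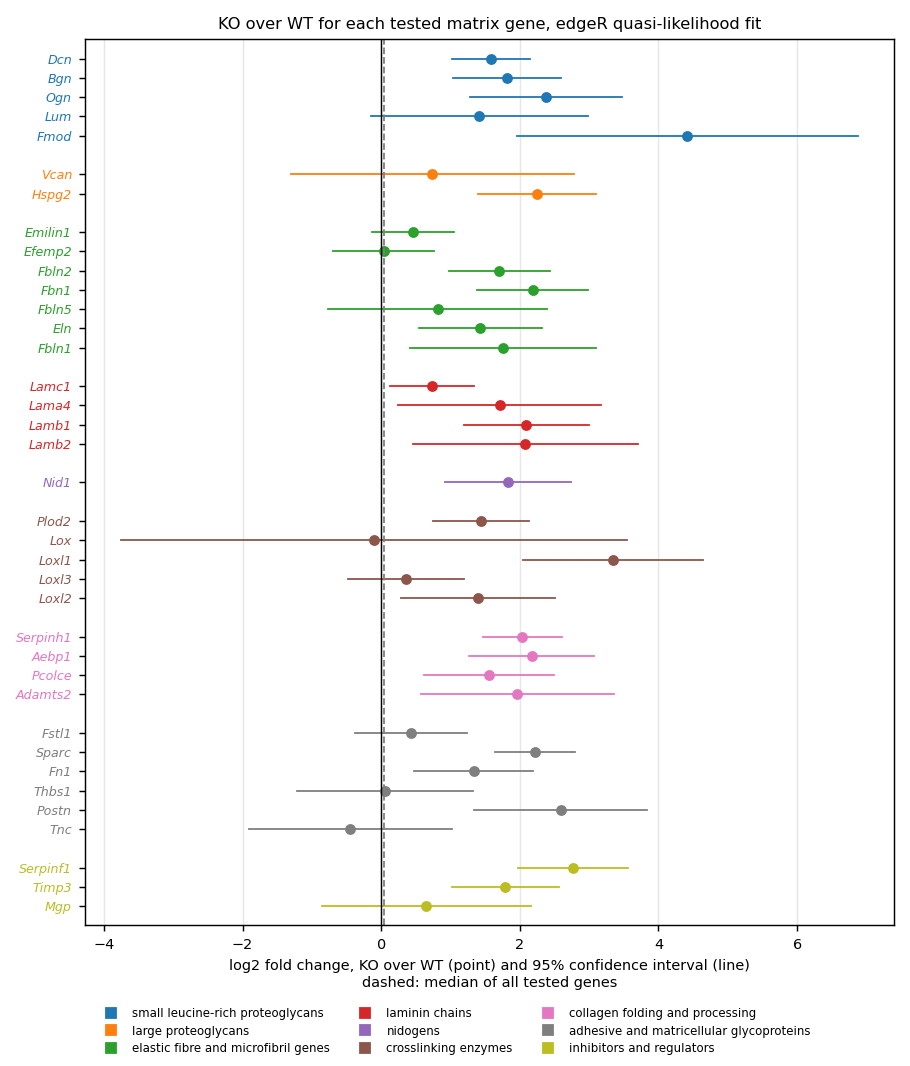
Log2 fold change of KO over WT (x axis) with its 95% confidence interval from the edgeR quasi-likelihood fit, for the 37 tested matrix genes (y axis) coloured by role. The points range from -0.45 in Tnc to 4.41 in Fmod, and most lie to the right of the dashed median of all genes at 0.041.

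The call depended on the tool. DESeq2's Wald test called 17 members at the same limits, all higher in KO (1.10% of all genes were called higher), and edgeR's exact test called 14, all higher in KO (1.16%). Of these, 13 were called by both tools: Bgn, Ogn, Hspg2, Fbn1, Fbln2, Lamb1, Loxl1, Serpinh1, Aebp1, Sparc, Postn, Serpinf1 and Timp3. Fmod was called by the exact test alone, and Dcn, Nid1, Plod2 and Fn1 by DESeq2 alone. With a term for the library number, 25 members were called (3.98% of all genes were called higher), and 18 with a length correction beside it (2.15%). Among the 27 members that passed the filter in both genotypes, DESeq2 called 15, the exact test 11, the fit with the number 20 and the fit with number and length 16.

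The 4 structural classes that the list sets side by side had overlapping values. The median log2 fold change was 1.81 for the 7 tested proteoglycans (0.74 to 4.41), 1.43 for 7 elastic fibre and microfibril genes (0.035 to 2.18), 1.89 for 4 laminin chains (0.73 to 2.09) and 1.40 for 5 crosslinking enzymes (-0.098 to 3.34). The ranges of the classes overlapped, and the difference between classes was not tested. Of the 4 medians, that of the laminin chains moved most when single libraries were left out. Lum, Fmod, Fbln1, Fbln5, Lamb2 and Loxl1 are in these classes and were tested only because of their KO counts. Fmod and Loxl1 held the highest values of the proteoglycans and the crosslinking enzymes. The next highest in these classes were 2.38 in Ogn and 1.44 in Plod2.

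**Figure D2:**
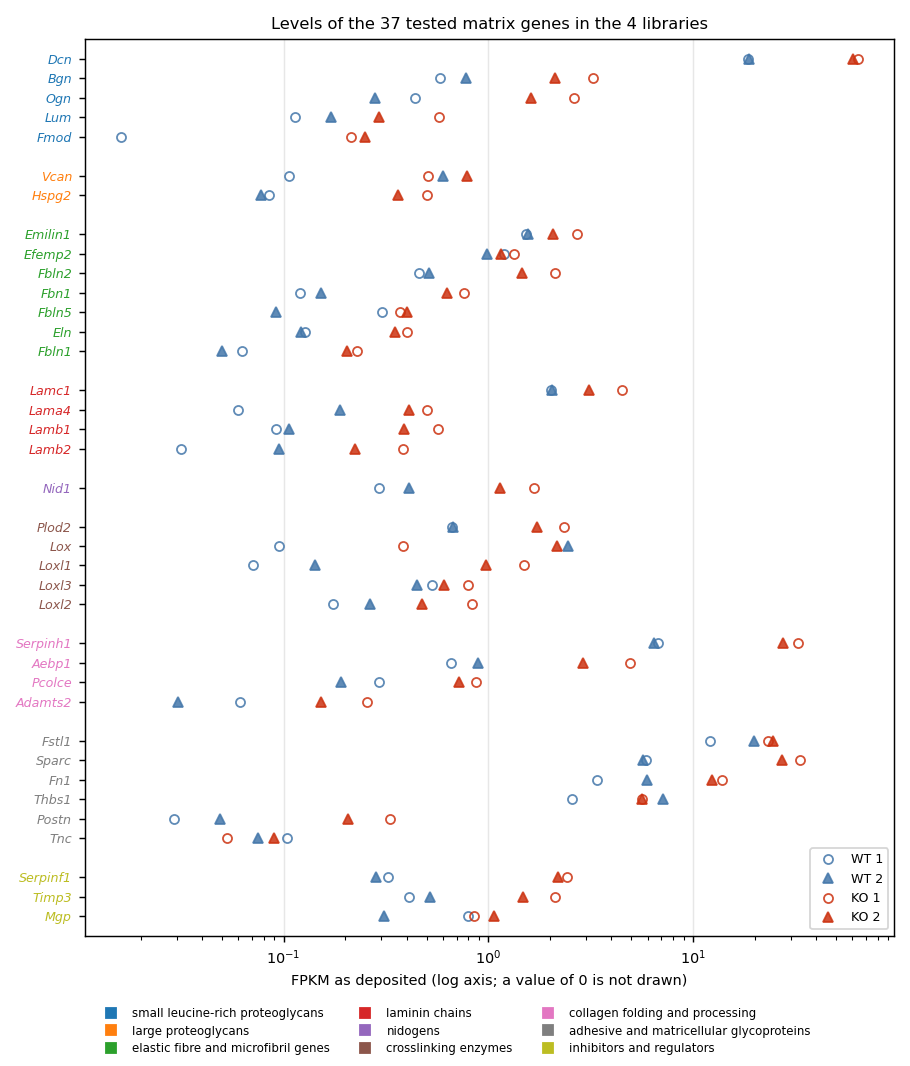
FPKM as deposited (x axis, log scale) of the 37 tested matrix genes (y axis, by role) in the libraries WT 1, WT 2, KO 1 and KO 2. Dcn had the highest level, 18.7 in WT and 62.3 in KO on average, and in most rows both red KO symbols stand to the right of both blue WT symbols.

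Decorin (Dcn), which binds type I collagen fibrils, was the most abundant matrix gene of the list per length in both genotypes. It had 658 and 666 counts in WT against 2224 and 2504 counts in KO. Its level was 18.7 ± 0.220 FPKM in WT and 62.3 ± 2.10 FPKM in KO (SD, n = 2), and its log2 fold change was 1.58 (SE 0.22). The libraries of each genotype lay close together, and the lower KO library stood 2.86 times above the higher WT library in CPM. Biglycan (Bgn), its closest relative, had 95 and 127 counts in WT against 524 and 404 counts in KO, with a log2 fold change of 1.81 (SE 0.31). Osteoglycin (Ogn) had 19 and 12 counts in WT against 111 and 81 counts in KO, with a log2 fold change of 2.38 (SE 0.43). Both genes had non-overlapping genotypes at a level far below that of decorin. Lumican (Lum), a regulator of fibril diameter, had only 4 and 6 counts in WT against 20 and 12 counts in KO (log2 fold change 1.41, SE 0.62). Fibromodulin (Fmod) had 1 and 0 counts in WT against 13 and 18 counts in KO, a ratio of 26.0 with a 95% counting interval of 4.34 to 1060. Its fitted log2 fold change of 4.41 (SE 0.97) depends on the prior count, and was 6.88 without WT 1 and 3.54 without WT 2. Asporin (Aspn) had 0 counts in every library.

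Genes of this family lie in clusters (positions as the count table gives them, on GRCm38). On chromosome 10, Dcn (97479500 to 97518162) and Lum (97565501 to 97572703) are 47.3 kb apart, and the next genes, Kera and Epyc, known from cornea and cartilage, had 0 counts. On chromosome 13, Ogn (49608071 to 49624500) was read in every library, while Omd and Aspn had 0 counts and Ecm2 had at most 2. On chromosome 1, Prelp had 0 and 0 counts in WT against 10 and 2 counts in KO, and Fmod, 116 kb away, was also higher in both KO libraries. Kera, Epyc, Omd and Aspn were the genes of these clusters without counts.

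Of the large proteoglycans, perlecan (Hspg2), the heparan sulphate proteoglycan of basement membranes, had 24 and 22 counts in WT against 141 and 119 counts in KO, with a log2 fold change of 2.24 (SE 0.33). Versican (Vcan), the hyaluronan-binding proteoglycan of loose matrix that monocytes also make, had 36 and 203 counts in WT against 170 and 311 counts in KO. WT 2 was above KO 1, so the genotypes of versican overlapped (log2 fold change 0.74, SE 0.81). On the log2 scale, versican was 2.02 higher in KO 1 than in WT 1 and 0.31 higher in KO 2 than in WT 2. With a term for the library number it was called (log2 fold change 1.05, edgeR adjusted p = 0.00297), a call lost with a length correction beside it (adjusted p = 0.234). Its log2 fold change was -0.031 without WT 1 and 2.45 without WT 2.

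Fibrillin-1 (Fbn1), the backbone of microfibrils, had 30 and 38 counts in WT against 186 and 183 counts in KO, with a log2 fold change of 2.18 (SE 0.31). Fibulin-2 (Fbln2), which links fibrillin and basement membrane proteins, had 76 and 85 counts in WT against 344 and 281 counts in KO (1.71, SE 0.29). Elastin (Eln), the elastic core itself, had 21 and 20 counts in WT against 65 and 67 counts in KO (1.43, SE 0.35). In these 3 genes the libraries within a genotype differed far less than the genotypes. Fibulin-1 (Fbln1) was sparse, with 5 and 4 counts in WT against 18 and 19 counts in KO (1.76, SE 0.53).

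The 2 genes of the elastic fibre group with the highest level in WT had the smallest log2 fold changes of the group. Emilin1, a glycoprotein at the border of elastin and microfibrils, had 213 and 215 counts in WT against 369 and 333 counts in KO, with a level of 1.55 ± 0.0152 FPKM in WT and 2.39 ± 0.451 FPKM in KO. Its genotypes did not overlap, and its log2 fold change was 0.46 (SE 0.23) at an adjusted p of 0.848 in edgeR's test. Efemp2 (fibulin-4), which is needed for elastic fibre assembly, had 100 and 82 counts in WT against 110 and 112 counts in KO. Its genotypes overlapped after scaling, and its log2 fold change of 0.035 (95% confidence interval -0.70 to 0.77) changed sign with the scaling. Fibulin-5 (Fbln5), which tethers elastin to cells, had 30 and 9 counts in WT against 36 and 46 counts in KO. The WT libraries of fibulin-5 lay further apart than the genotypes (log2 fold change 0.82, SE 0.62), and the log2 fold change was 1.91 without WT 1 and 0.17 without WT 2. The microfibril-associated genes were near or at the floor: Mfap2 had 1 and 0 counts in WT against 4 and 2 counts in KO, Mfap5 had between 2 and 5 counts in a library, and Mfap4 had 0.

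Laminins are trimers of an alpha, a beta and a gamma chain. The gamma chain Lamc1, shared by most laminins, was the most abundant, with 352 and 355 counts in WT against 773 and 623 counts in KO. Its level was 2.04 ± 0.0188 FPKM in WT and 3.81 ± 1.02 FPKM in KO (SD, n = 2), and its log2 fold change of 0.73 (SE 0.24) was the smallest of the tested chains. The alpha and beta chains had lower levels and larger differences. Lamb1 had 20 and 23 counts in WT against 121 and 98 counts in KO (log2 fold change 2.09, SE 0.35). Lamb2 had 4 and 12 counts in WT against 48 and 33 counts in KO (2.07, SE 0.64). Lama4, the alpha chain of mesenchymal and vascular laminins, had 15 and 47 counts in WT against 124 and 119 counts in KO (1.71, SE 0.58). In Lamb2 and Lama4 the WT libraries differed more than 3-fold, yet stayed below both KO libraries. Without WT 1 the log2 fold change of Lamb2 was 1.49, and without WT 2 it was 3.04. That of Lama4 was 1.10 without WT 1 and 2.74 without WT 2. Lama2, the alpha chain of muscle and nerve laminins, had 2 counts in KO 2 and 0 elsewhere.

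Nidogen-1 (Nid1), which joins the laminin and type IV collagen networks, had 30 and 42 counts in WT against 169 and 136 counts in KO (log2 fold change 1.83, SE 0.36). Its relative Nid2 had 4 and 1 counts in WT against 14 and 11 counts in KO, a ratio of 4.20 with a 95% counting interval of 1.58 to 14.0. The interval covers counting error only, and 8.45% of the exon bases of Nid2 are shared with the abundant antisense gene Rtraf.

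The crosslinking enzymes were not alike. The lysyl oxidase Loxl1, which acts on elastin, had 4 and 8 counts in WT against 83 and 64 counts in KO, with a log2 fold change of 3.34 (SE 0.51). Loxl2, which acts on basement membrane collagen, had 18 and 27 counts in WT against 84 and 57 counts in KO (1.40, SE 0.44). The lysyl hydroxylase Plod2, which prepares collagen telopeptides for crosslinking, had 84 and 84 counts in WT against 291 and 253 counts in KO, with 0.668 ± 0.00215 FPKM in WT and 2.04 ± 0.438 FPKM in KO (1.44, SE 0.27). These 3 enzymes had non-overlapping genotypes and differed by over 1 on the log2 scale. Loxl3 had 50 and 42 counts in WT against 74 and 66 counts in KO (0.36, SE 0.33), and it shares 11.6% of its exon bases with the antisense gene Htra2.

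Lox itself, the founding member of the family, followed the library number and not the genotype. It had 12 counts in WT 1 and 48 in KO 1 but 309 in WT 2 and 319 in KO 2, which is 1.27 ± 1.66 FPKM in WT and 1.28 ± 1.26 FPKM in KO (SD, n = 2). The WT libraries were 26.2-fold apart in CPM and the KO libraries 6.29-fold. On the log2 scale KO 1 over WT 1 was 1.76, and KO 2 over WT 2 was -0.26. The pooled log2 fold change was -0.098 (95% confidence interval -3.75 to 3.55). It was 3.62 without WT 2 and 0.69 without KO 1, but -1.04 without WT 1 and -1.97 without KO 2.

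The 4 genes for the folding and processing of collagen had both KO libraries above both WT libraries, as did 20.0% of all tested genes, and Adamts2 passed the filter on low counts only through KO. Serpinh1 (HSP47), the collagen chaperone of the endoplasmic reticulum, had 300 and 284 counts in WT against 1421 and 1425 counts in KO. Its level was 6.59 ± 0.234 FPKM in WT and 30.1 ± 3.47 FPKM in KO (SD, n = 2), with a log2 fold change of 2.03 (SE 0.22). Aebp1 (ACLP), a collagen-binding secreted protein, had 50 and 67 counts in WT against 369 and 256 counts in KO, with 0.774 ± 0.162 FPKM in WT and 3.93 ± 1.44 FPKM in KO (2.17, SE 0.36). The enhancer of procollagen C-proteinase, Pcolce, had 34 and 22 counts in WT against 99 and 97 counts in KO (1.55, SE 0.37). The procollagen N-proteinase Adamts2 had 10 and 5 counts in WT against 41 and 29 counts in KO (1.96, SE 0.55). The log2 fold changes of these 4 genes lay between 1.55 and 2.17.

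Sparc, among the adhesive and matricellular glycoproteins, and Serpinh1 had the largest log2 fold changes of the 6 members with a mean over 5 FPKM in KO. Sparc (osteonectin), which binds collagen and calcium, had 444 and 429 counts in WT against 2458 and 2393 counts in KO. Its log2 fold change was 2.22 (SE 0.23), and its libraries lay close together within each genotype. Sparc lies 49.6 kb from G3bp1 on chromosome 11. Periostin (Postn), a collagen-binding protein of fibroblasts, had 6 and 10 counts in WT against 67 and 49 counts in KO (2.59, SE 0.49). Fibronectin (Fn1), the adhesive glycoprotein on which many matrix fibres are assembled, had 1044 and 1818 counts in WT against 4207 and 4407 counts in KO (1.33, SE 0.34). In CPM, KO 2 was 0.992 times KO 1 for fibronectin, whereas WT 2 was 1.77 times WT 1.

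The remaining members of this group overlapped between genotypes or were near the floor. Follistatin-like 1 (Fstl1), a secreted glycoprotein related to Sparc, had 1268 and 2057 counts in WT against 2390 and 2971 counts in KO, with 16.0 ± 5.41 FPKM in WT and 23.9 ± 0.869 FPKM in KO. WT 2 was slightly above KO 1 after scaling, and the log2 fold change was 0.43 (SE 0.32). Thrombospondin-1 (Thbs1) had 285 and 790 counts in WT against 616 and 723 counts in KO. Its log2 fold change of 0.056 (SE 0.50) was -0.51 without WT 1 and 0.96 without WT 2. Tenascin-C (Tnc) had 14 and 10 counts in WT against 7 and 14 counts in KO (-0.45, SE 0.58), and Thbs2 had 0 and 0 in WT against 2 and 2 in KO. In Thbs1 and Tnc, as in Lox, a KO library lay inside or below the WT range.

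Of the inhibitors and regulators, Serpinf1 (PEDF), a collagen-binding inhibitor of angiogenesis, had 22 and 19 counts in WT against 162 and 172 counts in KO. Its level was 0.303 ± 0.0304 FPKM in WT and 2.31 ± 0.173 FPKM in KO (SD, n = 2), with a log2 fold change of 2.77 (SE 0.32). Timp3, the matrix-bound inhibitor of metalloproteinases, had 63 and 79 counts in WT against 321 and 263 counts in KO (1.79, SE 0.31). Both had non-overlapping genotypes. Matrix Gla protein (Mgp), an inhibitor of calcification, had 18 and 7 counts in WT against 19 and 28 counts in KO, with 0.553 ± 0.342 FPKM in WT and 0.959 ± 0.150 FPKM in KO, and its genotypes overlapped after scaling (0.65, SE 0.60). Its log2 fold change was 1.46 without WT 1. The aggrecanase Adamts5 had 1 and 0 counts in WT against 3 and 3 counts in KO.

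Most of the differences were present among the libraries of each number. Of the 37 tested members, 34 had a higher level in KO 1 than in WT 1 (median log2 ratio 1.99), and 35 had a higher level in KO 2 than in WT 2 (median 1.41). Of all tested genes, 57.2% were higher within number 1 (median 0.11) and 49.8% within number 2 (median -0.0013). Of the 27 members that passed the filter in both genotypes, 26 were higher within number 1 (median 1.99) and 25 within number 2 (median 1.38). The exceptions were Tnc, Mgp and Efemp2 within number 1 and Lox and Thbs1 within number 2. The WT libraries were more than 2-fold apart in 9 members, and the KO libraries in 1, Lox.

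**Figure D3:**
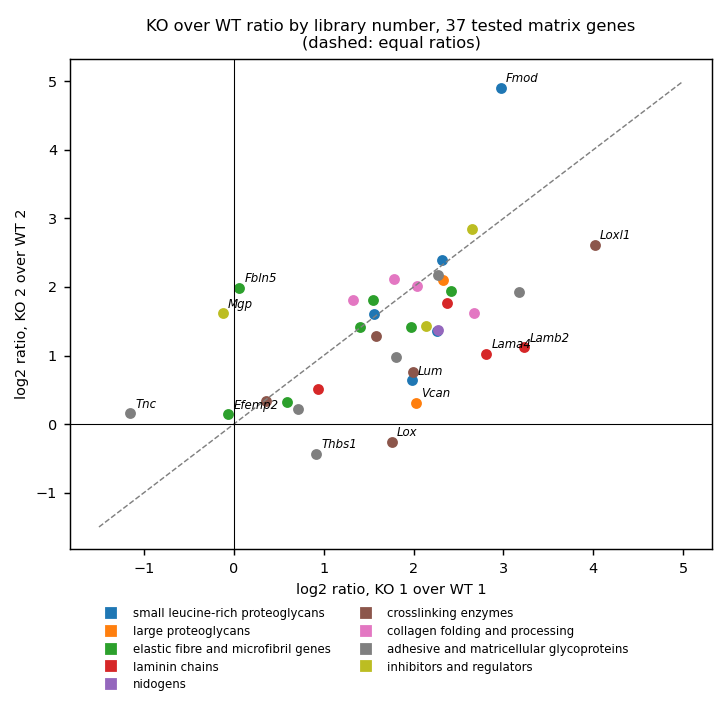
Log2 ratio of KO 1 to WT 1 (x axis) and of KO 2 to WT 2 (y axis), with 0.5 counts added, for the 37 tested matrix genes coloured by role. Most points lie in the upper right, with medians of 1.99 and 1.41, whereas Lox and Thbs1 lie below 0 within number 2 and Tnc, Mgp and Efemp2 below 0 within number 1.

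Upstream sequences were compared over the list, whether or not a member was higher in KO, and their bearing on the difference was not tested. RefSeq promoters on GRCm38.p6 were matched for 28 of the 45 members. Aspn, Tnc, Efemp2 and Vcan, without counts or with overlapping genotypes, were included, but Dcn, Fn1, Loxl1 and Plod2 were not. In the 250 bases before the RefSeq start site, on both strands, GGGCGG (the GC box of Sp1-family factors) was found in 60.7% of the matched members. It was found in 35.4% of all 27025 genes with a promoter. CAGACA, which holds the core of SMAD sites, was found in 35.7% of the members and 19.3% of all genes. TATAAA was found in 17.9% and 14.3%. The share with CCAAT was 28.6% and 37.5%. CATTCC, the core of TEAD sites, was found in 10.7% and 14.4%. The AP-1 core TGANTCA was found in 0% and 7.82%. The median GC content was 59.0% in the members and 52.4% over all promoters. These are matches of letters and not sites. Annotated exons cover all 250 bases of the windows of Fbn1, Fbln2 and Emilin1, 182 of Fstl1 and 143 of Serpinf1. The shares therefore include transcribed sequence. The 250 bases are printed here for Serpinh1, Aebp1 and Bgn, the 3 members of smallest p among those with 1 promoter entry whose window lies outside the gene as the count table places it and holds no annotated exon, and for Vcan, whose genotypes overlapped and whose call depended on the model. Sparc had a smaller p, but annotated exons cover 210 bases of its window. Capitals mark matches to the motifs on either strand, where a match on the other strand appears as its reverse complement, and adjoining GC boxes at the end of the Bgn window overlap each other. Serpinh1 is at chr7:99353240-99353489 (minus strand), Aebp1 at chr11:5861616-5861865 (plus), Bgn at chrX:73483351-73483600 (plus) and Vcan at chr13:89742513-89742762 (minus), each printed 5′ to 3′ along the gene.
Serpinh1: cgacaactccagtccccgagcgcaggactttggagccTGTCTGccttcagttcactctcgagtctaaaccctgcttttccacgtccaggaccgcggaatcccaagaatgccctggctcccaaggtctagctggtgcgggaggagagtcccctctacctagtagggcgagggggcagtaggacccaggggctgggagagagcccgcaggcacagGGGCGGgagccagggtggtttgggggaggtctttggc
Aebp1: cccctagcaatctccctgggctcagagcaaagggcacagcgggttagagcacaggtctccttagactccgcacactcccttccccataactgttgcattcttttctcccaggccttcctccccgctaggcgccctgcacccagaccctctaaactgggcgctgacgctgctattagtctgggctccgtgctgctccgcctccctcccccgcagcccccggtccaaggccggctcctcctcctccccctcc
Bgn: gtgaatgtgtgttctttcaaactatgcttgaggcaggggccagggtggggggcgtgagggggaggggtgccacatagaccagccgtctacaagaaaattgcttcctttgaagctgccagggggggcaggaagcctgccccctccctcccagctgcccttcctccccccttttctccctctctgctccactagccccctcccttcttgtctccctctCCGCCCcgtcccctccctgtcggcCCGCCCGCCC
Vcan: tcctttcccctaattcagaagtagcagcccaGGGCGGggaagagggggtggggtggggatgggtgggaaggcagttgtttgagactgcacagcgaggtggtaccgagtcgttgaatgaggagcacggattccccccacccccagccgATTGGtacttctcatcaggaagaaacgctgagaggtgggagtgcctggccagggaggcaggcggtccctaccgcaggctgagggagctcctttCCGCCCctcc
Serpinh1 held 1 GC box and 1 CAGACA match, Bgn held GC boxes only and Aebp1 none of the 6 motifs. Vcan held GC boxes and 1 CCAAT match.

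Other matrix genes were taken from 6 further lists of the same pathways, 83 genes in 84 entries, of which 42 were tested. The median of these was 0.23 on the log2 scale, with 19 higher and 3 lower in both KO libraries (20.0% and 16.9% of all genes). At an unadjusted p under 0.05 in edgeR's quasi-likelihood test, 9 were higher and 1 lower in KO (4.64% and 1.99% of all genes). That test called 0 of them. Of the 42, Ltbp2, Efemp1, Lama5, Adamts4, Adamts14, Ccn2 and Ccn4 passed the filter on low counts only through KO. Among the other 35 the median was 0.12, 14 were higher and 3 lower in both KO libraries, and 6 and 1 had an unadjusted p under 0.05. DESeq2 and edgeR's exact test called the same 5 genes, Bmp1, Ccn4, Fkbp10, Ltbp2 and P3h4, all higher in KO (1.10% and 1.16% of all genes were called higher). Of 13 tested crosslinking and hydroxylating enzymes of these lists, 5 were higher and 0 lower in both KO libraries, with a median of 0.11. The prolyl isomerase Fkbp10 had 15 and 17 counts in WT against 128 and 118 counts in KO (log2 fold change 2.68), and P3h4, which serves collagen lysyl hydroxylation, had 33 and 33 in WT against 155 and 149 in KO (1.95). These were the only 2 of the 13 above 1. The prolyl 4-hydroxylase subunits P4hb and P4ha1 had log2 fold changes of 0.15 and -0.031, and Crtap, Colgalt1, Plod3 and Plod1 had -0.044, 0.042, 0.11 and 0.17.

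Some relatives of members also had both KO libraries above both WT libraries, and among them Ltbp2, Ccn2, Ccn4, Efemp1 and Lama5 were tested only because of their KO counts. Bmp1, the procollagen C-proteinase that Pcolce enhances, had 21 and 54 counts in WT against 224 and 247 counts in KO (log2 fold change 2.39). The microfibril gene Ltbp2 had 8 and 17 counts in WT against 89 and 92 counts in KO (2.59). The matricellular genes Ccn1, Ccn2 and Ccn4 had log2 fold changes of 1.21, 2.53 and 3.37, the fibulin Efemp1 had 1.02 and the syndecan Sdc2 had 1.43, all with non-overlapping genotypes. The laminin chain Lama5, at 2 and 6 counts in WT against 13 and 18 counts in KO, had 1.67. The most abundant genes of these lists had smaller values. Osteopontin (Spp1), with a mean of 1126 FPKM, had a log2 fold change of 0.020, Timp2 had -0.12, the transglutaminase Tgm2 0.071 and the syndecan Sdc1 -0.11. Emilin2, a relative of Emilin1 with a mean of 36.7 FPKM, had 0.50, and the guidance factor Ntn1 of basement membranes had 0.12. Serglycin (Srgn), the granule proteoglycan of leukocytes, had 7435 and 11207 counts in WT against 4174 and 6809 counts in KO, lower in both KO libraries (-1.03, SE 0.35).

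**Figure D4:**
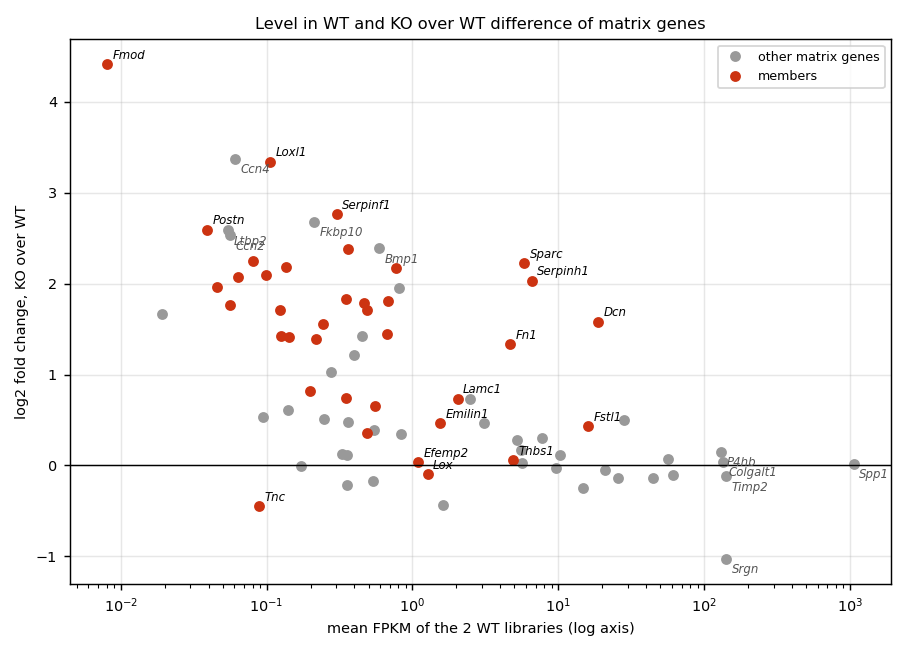
Mean FPKM of the WT libraries (x axis, log scale) and log2 fold change of KO over WT (y axis) for the tested members (red) and the other tested matrix genes (grey). Genes above 2 on the y axis lie mostly at WT levels below 1 FPKM, with Sparc and Serpinh1 as the abundant exceptions, and Srgn is the lowest point at -1.03.

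Abundant members were found with small and with large differences. The members at or above 1 FPKM in WT included Fstl1, Thbs1, Lamc1, Emilin1, Lox and Efemp2, whose log2 fold changes ran from -0.098 to 0.73, but also Dcn, Serpinh1, Sparc and Fn1, with 1.33 to 2.22. The number of members with a mean over 1 FPKM was 10 in WT and 19 in KO. In order of level, Dcn, Fstl1, Serpinh1 and Sparc led in WT, and Dcn, Sparc, Serpinh1 and Fstl1 in KO. The levels of Sparc and Serpinh1 in KO, 30.3 ± 4.12 and 30.1 ± 3.47 FPKM, did not differ beyond their spread.

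Markers of stromal cells moved with the matrix genes. Of 16 stromal markers 13 were tested, all 13 had a log2 fold change above 0, and 10 had both KO libraries above both WT libraries (median 2.07), against 54.6% and 20.0% of all tested genes. Pdgfrb and Thy1 passed the filter on low counts only through KO, and among the other 11 the log2 fold change was above 0 in 11 and the genotypes did not overlap in 10 (median 2.13). Their summed level was 53.0 and 65.0 CPM in WT and 287 and 244 CPM in KO. Pdgfra, the receptor that marks fibroblast-like cells, had 229 and 321 counts in WT against 1320 and 1448 counts in KO, and Acta2, smooth muscle actin, had 84 and 79 in WT against 475 and 561 in KO. The stromal marker Lepr had 0 counts in 3 libraries and 3 in WT 1, and Fap had at most 4 in a library. The stromal markers are no members of the matrix list. However, Col1a1, Col1a2, Col3a1 and Col6a3 among them are collagen genes and so matrix genes themselves (2.68, 2.48, 2.17 and 1.97). Their levels are part of the stromal counts, median and sum given here. The part of the stromal markers in the difference of the matrix genes was not tested.

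Other cell type markers did not stand apart in that way. Of 10 endothelial markers 4 were tested, with a median log2 fold change of -0.081 and a summed level of 7.58 and 8.54 CPM in WT and 9.07 and 5.54 CPM in KO, while Tek, Emcn and Cldn5 had 0 counts in every library. Of 10 megakaryocyte and platelet markers only Pf4, which was lower in both KO libraries (-0.94), was tested, and Gp9 and Gp6 had 0 counts. The summed megakaryocyte level was 226 and 149 CPM in WT and 81.6 and 115 CPM in KO, nearly all of it Pf4. The 15 tested rows of 14 macrophage markers (Itgam has 2) had a median of -0.18, and their summed level was 28225 and 26626 CPM in WT and 22359 and 26260 CPM in KO. Of these rows, 1 was higher and 4 were lower in both KO libraries, against 20.0% and 16.9% of all tested genes.

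**Figure D5:**
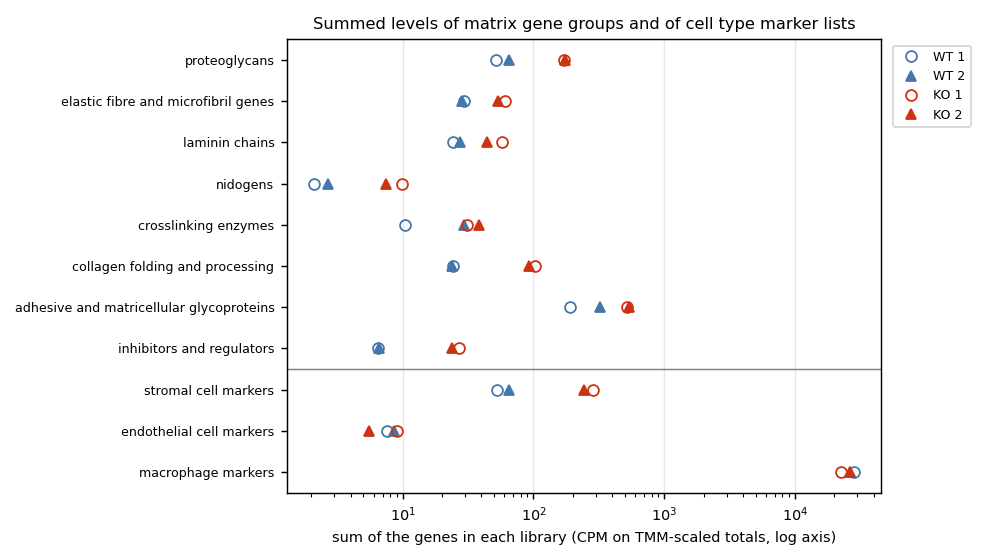
Summed level in CPM (x axis, log scale) of the matrix genes by role and of marker lists (y axis) in the libraries WT 1, WT 2, KO 1 and KO 2, with small and large proteoglycans drawn together. The stromal markers lie at 53.0 and 65.0 in WT against 287 and 244 in KO, and the KO symbols of every matrix group lie to the right of both WT symbols.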

How the data were processed

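The samples were 4 RNA-seq libraries of macrophages, 2 of each genotype. By the study's methods, reads went through Seqtk and HISAT2, and StringTie gave the fragments of each gene. For 34745 genes the authors deposited counts, as whole numbers without normalisation, and FPKM. The deposited FPKM values carried the library total and no TMM factor: for 10564 genes with at least 21 counts in every library, the implied gene length differed by at most 0.00398% between libraries. The submitters' processing notes name the build mm39, but 27686 of 34267 identifiers shared with GENCODE M21 lay at identical positions on GRCm38, and that build is used for coordinates. Whether counting used the strand is not given in the sources used here, so counts of overlapping genes on opposite strands may be shared.

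The test was edgeR 4.0.16 in R 4.3.3 (filterByExpr with a minimum count of 10 and a minimum total of 15, TMM, glmQLFit and glmQLFTest, genotype as the only term, two-sided, Benjamini-Hochberg over all 12418 tested genes). Calls needed an adjusted p under 0.05 with a log2 fold change over 1 in size. SD is over 2 libraries. Alternatives were DESeq2 1.42.0 (Wald test and size factors), edgeR's exact test, limma 3.58.1 on log2(FPKM + 1) and log2(FPKM + 0.1), other filters, a loess correction for gene length, a replicate block, and each library left out. The code was tested on simulated data.

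Members and lists were chosen with earlier results of these data known. Every member is named. Members with non-overlapping genotypes and an absolute log2 fold change over 1, and the 2 of highest mean FPKM of each role, have full values. Other matrix genes are named when non-overlapping with an absolute log2 fold change over 1 or most abundant in their list, and P4ha1, Tgm2, Timp2, Crtap, Colgalt1, Plod1, Plod3, Prelp, Kera, Epyc, Omd and Ecm2, and those named for their filter route, were added after their values were seen.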

Additional observations from a re-analysis of the deposited data

How the results depend on the processing

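Of the 37 tested members, 33 kept their direction under each alternative that tested them, and Efemp2, Lox, Thbs1 and Vcan did not. Of the 14 alternatives, Tnc was tested in 11, Fmod in 12, and Lum and Fbln1 in 13. The 2 libraries per genotype limit the precision, and the levels of members with few counts are uncertain for that reason too. Members called numbered 0 by edgeR's quasi-likelihood test under either scaling, either filter, the length correction and no minimum fold, and 0 by limma. They numbered 17 by DESeq2's Wald test and 14 by edgeR's exact test, where the other matrix genes called numbered 5 and 5. A fit with a library left out has a single library in a genotype, so only its effect sizes are given.

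The replicate number paired the libraries only as a hint from the data: deviations from the genotype means of same-numbered libraries correlated at 0.692 over all tested genes and 0.446 over the members, and the labels do not say what the number marks. With the replicate block, 25 members and 8 other matrix genes were called, namely 25 and 7 higher (3.98% of all genes) and 0 and 1, Srgn, lower (1.37%), and the biological coefficient of variation was 0.169 in place of 0.343. With the block and the length correction, 18 members and 8 other matrix genes were called, namely 18 and 7 higher (2.15%) and 0 and 1, again Srgn, lower (0.813%). All members called under any rule were higher in KO.

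The median log2 fold change of the members was 0.43 by limma on log2(FPKM + 1) and 1.39 with a pseudocount of 0.1, a scale that by construction shrinks low genes. On the same scales it was 0.40 and 1.62 for proteoglycans, 0.29 and 1.02 for elastic fibre genes, and 0.40 and 1.34 for laminins, and 0.43 for crosslinking enzymes with a pseudocount of 1. For elastic fibre genes it was 1.13 with the filter on the mean and 1.23 with the length correction, also 1.23 when the block was added to it. Leaving out 1 library gave medians of 1.57 to 1.77 for the members, 1.61 to 2.06 for proteoglycans, 1.37 to 1.62 for elastic fibre genes, 1.296 to 2.46 for laminins and 1.05 to 1.70 for crosslinking enzymes.

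The log2 fold change of Efemp2 was -0.0053 with DESeq2 size factors and with the Wald test, -0.065 with the length correction, -0.058 when the block was added to it, and -0.12 to 0.17 with single libraries left out. That of Lox was 0.37 with the replicate block, 0.20 with both block and length term, and 0.11 and 0.57 by limma with pseudocounts of 1 and 0.1. It was -1.04 without WT 1, 3.62 without WT 2, 0.69 without KO 1 and -1.97 without KO 2. That of Thbs1 was -0.052 with the length correction, -0.51 without WT 1, -0.030 without KO 2 and 0.96 without WT 2. That of Vcan was -0.031 without WT 1 and 2.45 without WT 2. The cause was not tested.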
